A study of Homo sapiens with 6 samples.

Results

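The NEK (never in mitosis A related) kinases are serine/threonine kinases that act at the centrosome, the spindle and the cilium and in the response to DNA damage. The set described here is *NEK1*, *NEK2*, *NEK3*, *NEK4*, *NEK6*, *NEK7*, *NEK8*, *NEK9*, *NEK10* and *NEK11*, chosen by name and found by NCBI gene ID, which makes 10 of the 28395 genes in the count table. *NEK5*, the other human member, is not in the set and had between 1 and 11 counts per library. Total RNA was sequenced from NCI-H146 (H146) cells, an established small-cell lung cancer (SCLC) line, on day 2 after siRNA transfection. The control siRNA group (genotype WT, negative control siRNA) and the siKIFC1 group (genotype KIFC1 knockdown, *KIFC1* siRNA) have 3 libraries each, and the labels call the libraries of a group biological replicates. All siKIFC1 libraries carry the name KD_2, and the sources used here do not say which *KIFC1* siRNA of the study that is. The siRNA comparison therefore rests on 1 cell line and 1 named knockdown. KIFC1 is the minus end-directed kinesin that gathers extra centrosomes into spindle poles, and the study asked what its loss does to the transcriptome.

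Several NEK kinases are known from the same process. In mitosis PLK1 and CDK1 activate NEK9, which activates NEK6 and NEK7, and these phosphorylate the kinesin KIF11 (Eg5) so that centrosomes move apart. NEK2 dissolves the linker of CEP250 (C-NAP1) and CROCC (rootletin) that holds the centrosomes together before mitosis. NEK1, NEK4 and NEK8 are known from the primary cilium and from DNA repair, NEK11 from the G2 checkpoint, and NEK10 from the checkpoint after UV light and from the motile cilia of airway cells. *NEK10* is set here beside the other 9 members, a choice made with its values known.

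The libraries held between 15392374 and 17754458 counts, and between 19437 and 20472 genes had a count. The target, *KIFC1*, was counted 14, 4 and 14 times under control siRNA and 1, 1 and 0 times under siKIFC1, at least 3.23-fold lower when each siKIFC1 library is set to a floor of 3 counts. Of the 32-base words of the *KIFC1* mRNA, 87.9% also occur on alternate sequences of GRCh38, and whether the authors' reference held these, which would make such reads map to several places, is not given in the sources used here. The low *KIFC1* counts may therefore not show its full level. Its adjusted p in edgeR was 0.0739, with 0.00459 under a replicate block, 0.00412 without the filter on low counts and 0.0471 in limma-voom. In edgeR it was also 0.0712 with DESeq2 size factors, 0.0763 with library size only, and 0.0675 to 0.370 with each library left out. The DESeq2 Wald test gave no adjusted p for *KIFC1*. Neuroendocrine markers were present, with *INSM1* at 679.7 ± 56.01 CPM (reads per 1e6 counted after scaling between libraries, SD, n = 3) in the control libraries, and *NEUROD1* had 5 or fewer counts in every library. Of 12 such markers 11 were tested, 0 were called by edgeR, 2 by DESeq2 and 3 by edgeR under a replicate block. Of all genes tested, edgeR called 0.697%, and 5.83% under the block, while DESeq2 called 126 higher and 148 lower. Without overlap between the groups, 4 of the 11 markers were higher and 1 lower, against 7.99% and 7.52% of all genes tested. Among 16 markers of other cell types the summed level was 37.4 to 46.9 CPM with control siRNA and 39.1 to 48.0 CPM with siKIFC1. Of these 16, 4 (*CD3E*, *DCN*, *SFTPC* and *SFTPA1*) had 3 or fewer counts in every library, and *TP63*, a basal cell marker, gave the most, 24.1 CPM in the control libraries, while edgeR called 0 of the 8 that were tested.

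The first question was which NEK kinases H146 cells express before any knockdown. Levels are compared between genes as CPM per kilobase of annotated exon sequence. *NEK2* was the highest member at 19.8 ± 1.83 CPM per kilobase (SD, n = 3) and *NEK10* the lowest at 0.359 ± 0.0208, a 55.0-fold range within the family. The median of the 10 members was 2.68 CPM per kilobase, against 5.06 over the genes tested that have an annotated length. *NEK2* stood above 84.3% of those genes and *NEK10* above 8.69%.

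*NEK2* (chromosome 1 of GRCh38, 211658256 to 211675621), the kinase that splits the centrosomes, measured 21.8, 19.0 and 18.4 CPM per kilobase in the 3 control libraries. *NEK7* (chromosome 1, 198156998 to 198322420) came next at 14.8 ± 0.596 (SD, n = 3), and the ranges of these 2 genes did not overlap. Its close relative *NEK6* (chromosome 9, 124257606 to 124353307) was at 3.16 ± 0.436 CPM per kilobase, and *NEK9* (chromosome 14, 75079353 to 75127202), the kinase upstream of both, at 2.94 ± 0.111. The library ranges of *NEK6* and *NEK9* overlapped, the only neighbours in the order for which this was so, and the pair changed places when the length of the canonical transcript replaced that of all exons. *NEK4* (chromosome 3, 52708444 to 52770940) lay between *NEK7* and *NEK6* at 4.97 ± 0.397 CPM per kilobase (SD, n = 3).

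The lower members of the order were *NEK8* (chromosome 17, 28728788 to 28743455) at 2.42 ± 0.110, *NEK3* (chromosome 13, 52132647 to 52159860) at 1.79 ± 0.161 and *NEK11* (chromosome 3, 131026877 to 131350465) at 1.497 ± 0.0877 CPM per kilobase (SD, n = 3). *NEK1* (chromosome 4, 169392809 to 169612583) was at 0.838 ± 0.107 and *NEK10* (chromosome 3, 27106484 to 27369383) at 0.359 CPM per kilobase. Canonical transcript lengths gave higher levels, 2.24 CPM per kilobase for *NEK1*, 3.38 for *NEK3*, 2.74 for *NEK11*, 4.74 for *NEK9* and 0.568 for *NEK10*. With these lengths *NEK3* passed *NEK8*, while *NEK2*, *NEK7* and *NEK4* stayed the 3 highest and *NEK11*, *NEK1* and *NEK10* the 3 lowest. *NEK10* mRNA made up 1.68% to 1.80% of the summed CPM of the 10 members in the control libraries.

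**Figure D1:**
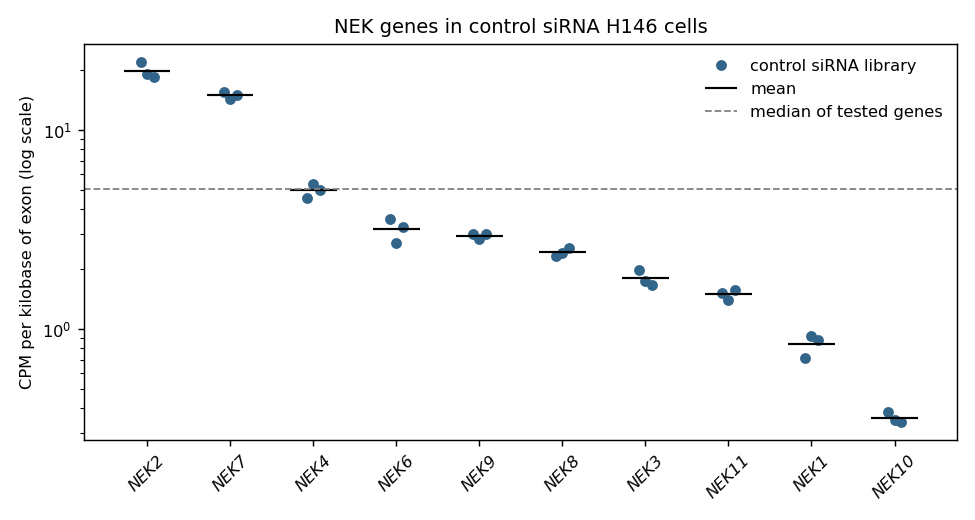
Level of each NEK gene in the 3 control siRNA libraries (blue points), in CPM per kilobase of exon on a log axis, with the mean as a black bar and the median of the genes tested as a dashed line. *NEK2* and *NEK7* lie above that median, *NEK4* close to it and the other 7 genes below, down to *NEK10* at 0.359.

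Some of these counts can share reads with other loci. Of the 32-base words of the *NEK2* mRNA, 21.6% occur elsewhere in the main GRCh38 sequence, in stretches on chromosomes 14, 2 and 22, where RefSeq lists *NEK2* pseudogenes that are not rows of the count table. The exons of *NEK4* overlap those of *SPCS1*, a signal peptidase subunit gene on the opposite strand, over 42.3% of their length, and the strand setting of the counting is not given in the sources used here. The smaller overlaps with genes of the count table were 7.64% of *NEK9* exon sequence with *ZC2HC1C*, 4.87% of *NEK11* with *ASTE1* and 2.27% of *NEK8* with *TLCD1*. Long noncoding RNAs that are not rows of the table overlap 16.5% of *NEK8*, 2.12% of *NEK3* and 1.44% of *NEK9*, also on the opposite strand. The share of words that occur elsewhere was 12.9% for *NEK4*, 11.6% for *NEK8*, 8.97% for *NEK9* and 2.70% for *NEK10*, and it was 0 for *NEK1*, *NEK3*, *NEK6*, *NEK7* and *NEK11*. Whether shared reads bear on the differences below was not tested.

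The second question was how KIFC1 knockdown moved these 10 genes. No NEK gene passed the threshold. In edgeR's quasi-likelihood fit, with Benjamini-Hochberg adjustment and a threshold of 0.05, 0 of the 10 were higher and 0 lower, where 0.697% of the 14777 genes tested were called (0.325% higher and 0.372% lower). DESeq2 and limma-voom also called 0 of the 10. These fits leave out the pairing of libraries by replicate number, although libraries of the same number deviated together. A replicate block, which compares libraries of the same number, called 5.83% of all genes (2.75% higher and 3.07% lower) and again 0 of the 10. At an unadjusted p under 0.05 there was 1 member higher (*NEK2*) and 1 lower (*NEK10*), against 4.72% and 4.55% of all genes, 9.26% together. The log2 fold changes of the members had a median of -0.00, with 5 above 0 and 5 below, and the median over all genes tested was 0.01. In bulk RNA, a change in the number of cells that express a gene cannot be told apart from a change in RNA per cell.

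For *NEK10*, 84, 74 and 83 reads were counted with control siRNA and 39, 40 and 66 with siKIFC1. These correspond to 5.04, 4.63 and 4.52 CPM with control siRNA and 2.49, 2.63 and 4.04 CPM with siKIFC1. All siKIFC1 values lay below the lowest control value, but replicate 3 of the knockdown was much nearer to the controls than the other 2 libraries. The mean went from 4.73 ± 0.275 to 3.06 ± 0.857 CPM (SD, n = 3). In edgeR this was a log2 difference of -0.63 ± 0.23 (standard error, adjusted p = 0.383). The 95% interval of that estimate, not adjusted for the number of genes, ran from 0.455 to 0.922 of the control level.

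The size of the *NEK10* difference depended on replicate 3. Between libraries that share a replicate number, the log2 ratio was -1.02 for replicate 1, -0.81 for replicate 2 and -0.16 for replicate 3. Without siKIFC1 replicate 3 the log2 fold change was -0.88 with an adjusted p of 0.0553 in edgeR, and without siKIFC1 replicate 1 it was -0.50 with an adjusted p of 0.733. Under a replicate block edgeR gave an adjusted p of 0.0754. At 39 to 84 counts per library, counting error alone amounts to 10.9% to 16.01% of a value. Of all genes tested, 1.57% had a log2 fold change at or below that of *NEK10*, and of the 1149 genes within 0.5 of its mean log2 CPM, 2.70% did.

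**Figure D2:**
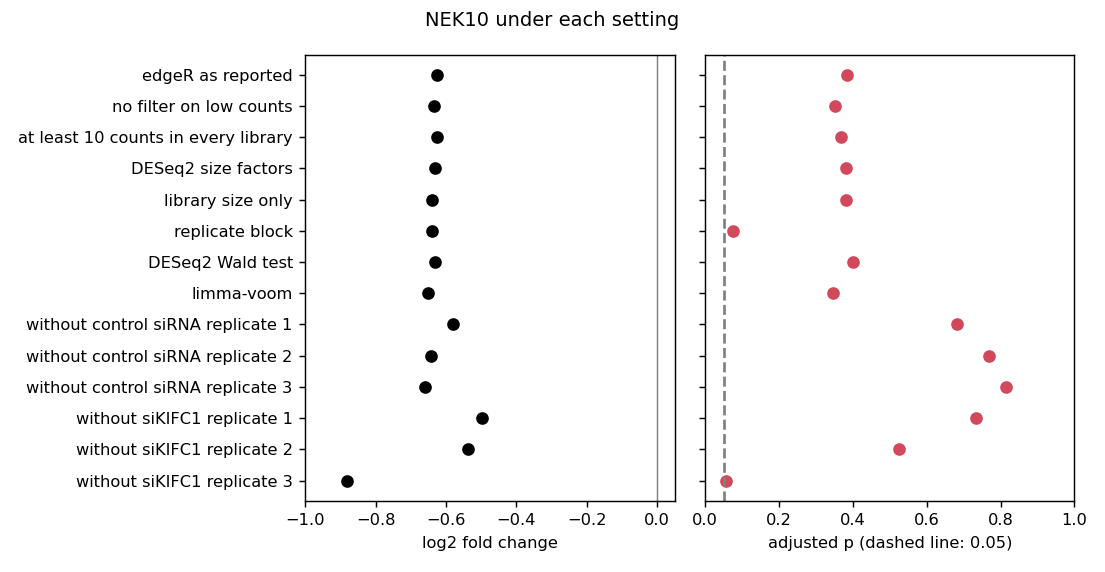
*NEK10* log2 fold change (left) and adjusted p (right) from the edgeR fit as reported and from the 13 other settings, with a dashed line at an adjusted p of 0.05. The log2 fold change stays below 0 in each, from -0.88 to -0.50, and the adjusted p stays above 0.05 in each, from 0.0553 to 0.814.

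Beside *NEK10*, the other 9 members had smaller estimates, from -0.23 for *NEK4* to 0.29 for *NEK6* on the log2 scale. The *NEK10* estimate lay outside the 95% interval of each of them, while the estimates of 2 of them, *NEK4* and *NEK11*, lay inside the wider *NEK10* interval. The standard errors ran from 0.11 to 0.17 for these 9 members and reached 0.23 for *NEK10*, the member with the fewest counts. *NEK10* made up 0.845% to 1.24% of the summed member CPM in the siKIFC1 libraries, a range below that of the controls given above. Since *NEK10* was singled out with its value known, the difference between it and the other members was not tested.

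**Figure D3:**
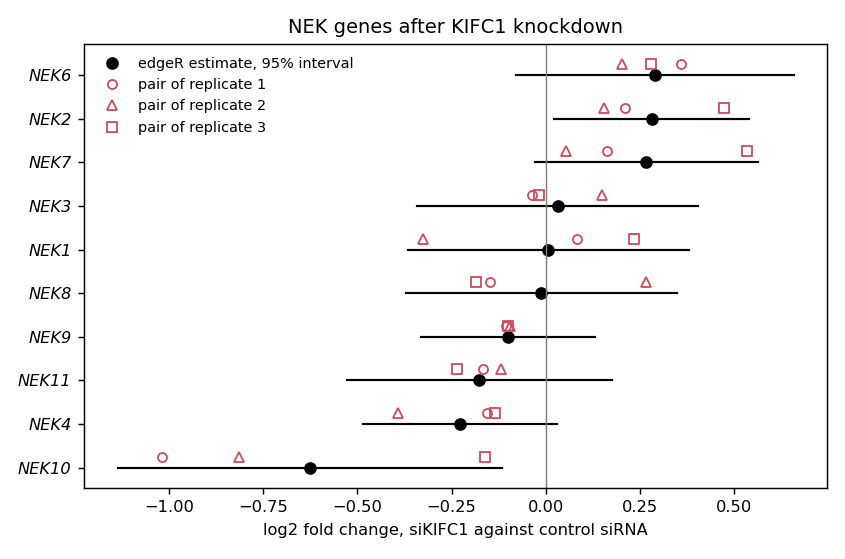
log2 fold change of each NEK gene, siKIFC1 against control siRNA, as the edgeR estimate with its 95% interval (black, not adjusted for the number of genes) and as the ratio of the libraries that share a replicate number (red symbols). *NEK10* lies lowest, with replicate 3 apart from replicates 1 and 2, and the intervals of *NEK10* and *NEK2* alone exclude 0. The intervals are from the fit without the replicate block.

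Of the mitotic kinases, *NEK2* measured 67.6, 58.8 and 57.0 CPM with control siRNA and 78.2, 65.5 and 79.0 CPM with siKIFC1. The groups overlapped, since siKIFC1 replicate 2 was below control replicate 1. The mean went from 61.1 ± 5.66 to 74.2 ± 7.61 CPM (SD, n = 3), and edgeR estimated a log2 difference of 0.28 ± 0.12 (standard error, adjusted p = 0.486). Under a replicate block the edgeR adjusted p was 0.0823, and the log2 ratio was positive in each numbered pair (0.21, 0.16 and 0.47). The same sign in all 3 pairs, in either direction, was seen in 38.9% of all genes tested.

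*NEK7* measured 83.8, 77.4 and 81.5 CPM with control siRNA and 93.7, 80.3 and 118.0 CPM with siKIFC1. Only siKIFC1 replicate 2 fell within the control range, and replicate 3 was far above it. Its log2 fold change was 0.27 (standard error 0.14, edgeR adjusted p = 0.607, and 0.134 under a replicate block). That estimate ranged from 0.10 without siKIFC1 replicate 3 to 0.38 without siKIFC1 replicate 2. *NEK6* went from 14.0 ± 1.93 to 17.1 ± 3.25 CPM (SD, n = 3) with overlapping groups. For it, edgeR estimated a log2 difference of 0.29 ± 0.17 (standard error, adjusted p = 0.690, and 0.205 under a replicate block). In the same pairs in which *NEK6* and *NEK7* had positive ratios, their activator *NEK9* had ratios of -0.11, -0.10 and -0.10, with 40.2, 37.5 and 39.97 CPM in the control libraries and 37.3, 35.1 and 37.3 CPM in the siKIFC1 libraries. The *NEK9* groups did not overlap, at a log2 fold change of -0.10 (standard error 0.11, edgeR adjusted p = 0.872). The libraries of a group varied little for *NEK9*, with a coefficient of variation of 3.78% for control siRNA and 3.45% for siKIFC1.

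**Figure D4:**
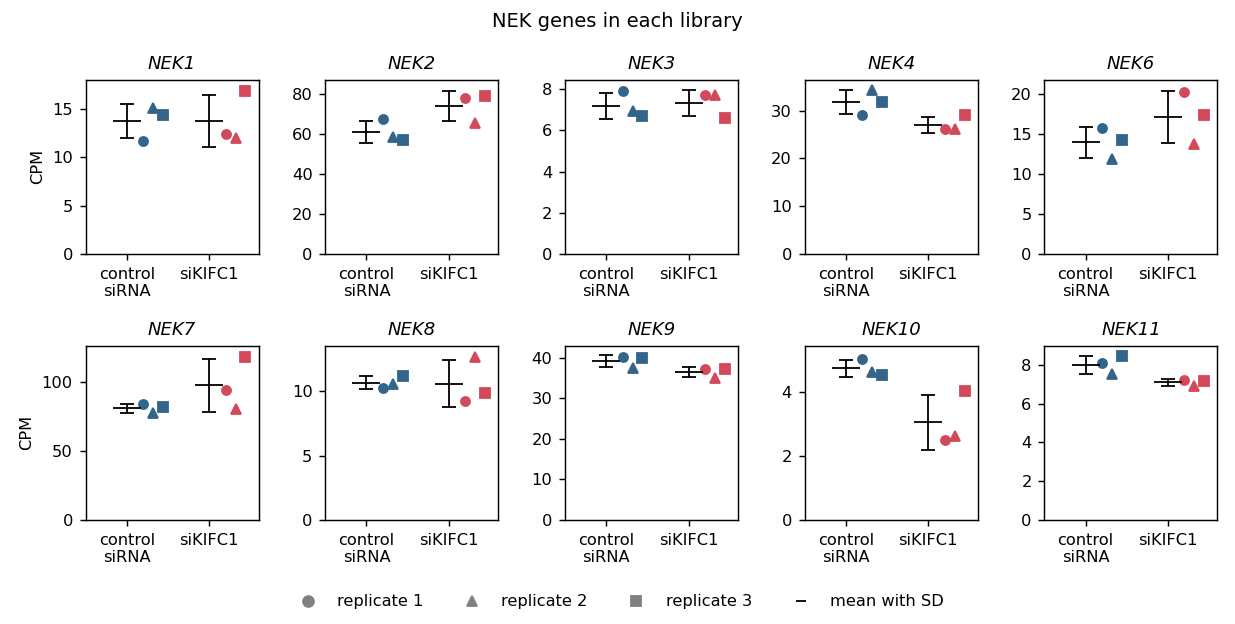
CPM of each NEK gene in every library, with control siRNA in blue, siKIFC1 in red, 1 symbol per replicate number, and the mean with its SD in black. The groups of *NEK4*, *NEK9*, *NEK10* and *NEK11* do not overlap, and siKIFC1 replicate 3 is the highest knockdown library for *NEK1*, *NEK2*, *NEK4*, *NEK7* and *NEK10*.

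*NEK4* and *NEK11* were also lower in every siKIFC1 library. *NEK4* measured 29.2, 34.2 and 31.9 CPM with control siRNA and 26.2, 26.1 and 29.0 CPM with siKIFC1. This was a log2 fold change of -0.23 (standard error 0.12, edgeR adjusted p = 0.615, and 0.245 under a replicate block). The gene that overlaps it on the opposite strand, *SPCS1*, stood the other way, with 57.7 to 67.1 CPM in the control libraries and 71.1 to 77.1 CPM in the siKIFC1 libraries. *NEK11* measured 8.10, 7.51 and 8.44 CPM with control siRNA and 7.22, 6.92 and 7.16 CPM with siKIFC1, a log2 fold change of -0.18 (standard error 0.16, edgeR adjusted p = 0.837). In all, 4 of the 10 members (*NEK4*, *NEK9*, *NEK10* and *NEK11*) were lower without overlap and 0 were higher without overlap, where 7.52% of all genes tested were lower and 7.99% higher in that way. The gap for *NEK4* was small, 29.02 CPM in siKIFC1 replicate 3 against 29.17 CPM in control replicate 1. Overlap was judged only on CPM after scaling between libraries, and other scalings were not tried for it.

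The estimates of *NEK1*, *NEK3* and *NEK8* were all close to 0. *NEK1*, a kinase of the cilium and DNA repair, went from 13.7 ± 1.75 to 13.7 ± 2.69 CPM (SD, n = 3), and its log2 ratio was 0.08, -0.33 and 0.23 in the 3 numbered pairs. *NEK8*, a kinase of the primary cilium, went from 10.7 ± 0.486 to 10.6 ± 1.84 CPM, with siKIFC1 replicate 2 above all other libraries at 12.7 CPM. *NEK3* went from 7.19 ± 0.647 to 7.35 ± 0.637 CPM. Their 95% intervals, not adjusted for the number of genes, ran from -22.4% to 30.1% for *NEK1*, from -22.6% to 27.2% for *NEK8* and from -21.1% to 32.4% for *NEK3*. Differences inside these intervals are compatible with this fit, which was made without the replicate block.

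The partners and substrates of the NEK kinases, 36 genes listed from general knowledge, were compared in the same fit. With an adjusted p under 0.05 in edgeR, 0 of the 36 were higher and 0 lower, and DESeq2 called 0. At an unadjusted edgeR p under 0.05 there was 1 higher (*STK3*) and 0 lower, against 4.72% and 4.55% of all genes tested. The median log2 fold change was 0.00, with 18 genes above 0 and 18 below. *STK3* (MST2), a kinase that acts upstream of NEK2 at the centrosome linker, was at 11.99 ± 0.420 and then 17.6 ± 2.23 CPM (SD, n = 3), with a log2 difference of 0.55 (edgeR adjusted p = 0.130, and 0.00713 under a replicate block). It was the only one of the 36 partner genes called with the block, which called 5.83% of all genes tested.

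Of the linker proteins that NEK2 phosphorylates, *CEP250* was at 57.8 ± 8.98 and 48.7 ± 8.38 CPM (SD, n = 3) and *CROCC* at 20.4 ± 1.22 and 16.8 ± 3.15 CPM, control siRNA first. Their log2 fold changes of -0.25 and -0.29 had edgeR adjusted p of 0.701 and 0.639, and with that of *BICD2*, the dynein adaptor bound by NEK9 (-0.29, edgeR adjusted p = 0.566), they were the 3 lowest of the list. The 3 highest were *RPGRIP1*, a cilium scaffold known to bind NEK4, *STK3* and *KIF11*, the motor downstream of NEK6 and NEK7. *KIF11* was at 136.2 ± 12.8 CPM with control siRNA and 155.0 ± 27.1 CPM with siKIFC1 (SD, n = 3), for a log2 difference of 0.19 (edgeR adjusted p = 0.776). *RPGRIP1* was at 0.772 ± 0.239 and 1.24 ± 0.570 CPM (log2 fold change 0.68, edgeR adjusted p = 0.710).

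*NEK2* mRNA is known to peak in S and G2 phase, so 20 genes of the G2/M phase are given beside it. In edgeR 0 of the 20 were higher and 0 lower at an adjusted p under 0.05, and DESeq2 called 0. At an unadjusted edgeR p under 0.05 there was 1 higher (*KIF20A*) and 0 lower, against 4.72% and 4.55% of all genes tested. Their median log2 fold change was 0.06, with 13 above 0 and 7 below, and their summed level was 3669 to 3955 CPM in the control libraries and 3435 to 4175 CPM in the siKIFC1 libraries. The highest were *KIF20A* (log2 fold change 0.25, edgeR adjusted p = 0.495), *CCNB2* (0.17) and *CCNB1* (0.17), the latter pair encoding mitotic cyclins. The lowest were *MKI67*, the proliferation marker (-0.30, edgeR adjusted p = 0.689), *NUSAP1* (-0.25) and *BIRC5* (-0.21). *MKI67* went from 477.7 ± 73.4 to 387.2 ± 110.4 CPM (SD, n = 3). It was called lower under a replicate block (edgeR adjusted p = 0.00914), as were 3.07% of all genes tested. The part of cell cycle phase in the *NEK2* values was not tested.

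*NEK10* is known from multiciliated airway cells, so 24 genes of motile cilia were listed too, 18 of which passed the filter on low counts. Of these 18, 0 were higher and 0 lower at an adjusted p under 0.05 in edgeR, 0 in DESeq2 and 0 at an unadjusted p under 0.05. Over all genes tested, the edgeR shares were 0.697% at the adjusted and 9.26% at the unadjusted threshold. The median log2 fold change of the 18 was 0.04. The list was unevenly expressed in the control libraries. The regulators *FOXJ1* and *MCIDAS* were at 12.2 and 4.52 CPM, and the structural or assembly genes *SPAG17*, *CCDC39* and *RSPH4A* at 47.9, 33.0 and 14.5 CPM, while the dynein genes *DNAH5* and *DNAH9* had 11 or fewer counts in every library and *TEKT1* had 0. The lowest of the list were *RSPH1*, a radial spoke gene (log2 fold change -0.45, edgeR adjusted p = 0.617), *MCIDAS* (-0.36) and *SPAG17* (-0.20), and the highest *RFX2* (0.57), *TEKT2* (0.46) and *CAPS* (0.39).

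**Figure D5:**
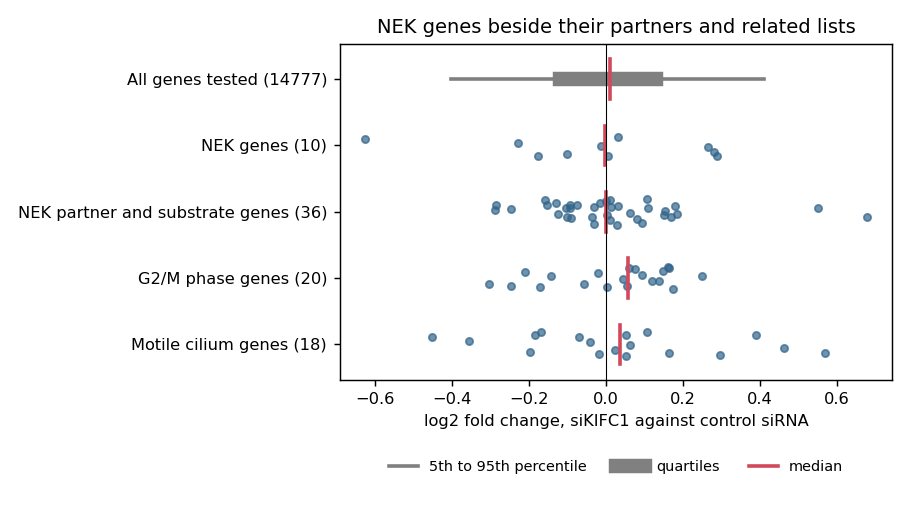
log2 fold change, siKIFC1 against control siRNA, of the 10 NEK genes and of the tested genes of the 3 lists (blue points), with the median of each as a red bar and the spread of all genes tested in grey. The 4 medians lie between -0.00 and 0.06, and *NEK10* is the point farthest to the left among the NEK genes.

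The sequence word GAGATCT occurs in the *KIFC1* mRNA and was picked in an earlier scan of the fold changes of these same libraries. Since the word came from the fold changes, its presence is a description and supports nothing. It was looked for on the sense strand in the GENCODE canonical mRNA of each member, and the sites are shown because *NEK10* held more copies than any other member. The word is in capitals, with 10 bases before it and 4 after. The *KIFC1* site lies in exon 7, in the coding sequence (chr6:33405472-33405492, plus strand). The *NEK10* sites lie in the coding sequence in exons 5 (chr3:27344302-27344322), 17 (chr3:27291554-27291574) and 22 (chr3:27284645-27284665) and in the 3' UTR in exon 36 (chr3:27109325-27109345), all on the minus strand of GRCh38.
KIFC1, exon 7: aagctacgtaGAGATCTacaa
NEK10, exon 5: actatttcagGAGATCTttac
NEK10, exon 17: agacttgtttGAGATCTtcat
NEK10, exon 22: attgtccataGAGATCTgaca
NEK10, exon 36: gtgcaatggcGAGATCTtaac

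*NEK10* was the only member with the word in its 3' UTR, which at 4788 bases is the second longest of the family after that of *NEK9* (5211 bases, 0 copies). Of the 12958 tested genes with a 3' UTR of at least 50 bases, 8.96% hold it there. In the coding sequence *NEK4* and *NEK11* had 2 copies each and *NEK1* and *NEK7* 1 each, while *NEK2*, *NEK3*, *NEK6*, *NEK8* and *NEK9* had 0 in the whole mRNA. At least 1 copy anywhere in the mRNA was found in 21.0% of 14214 tested genes. The *NEK10* count of 4 was then used as a cutoff, which 22 genes (0.155%) reached. These shares are not matched for mRNA length. The *NEK10* mRNA is also the longest of the family, at 8332 bases. A second word, GCAACC, was also looked for and had 1 copy in the 3' UTR of each of *NEK4*, *NEK7*, *NEK9* and *NEK10*. Of the 12958 tested genes with such a 3' UTR, 23.2% hold it there. The sequence of the siRNA is not given in the sources used here, and a part of either word in the fold changes was not tested.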

How the data were processed

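Total RNA of 6 H146 samples (3 control siRNA, 3 siKIFC1) was sequenced. Per the labels and methods, alignment to GRCh38 used HISAT2 2.2.1 and featureCounts 2.0.8 gave the reads per gene, which the authors deposited as whole-number counts without normalization. The annotation, strand setting and treatment of reads with several alignments are not given in the sources used here. Of 28395 gene IDs, 27745 were matched to RefSeq symbols. Groups were taken from the sample labels.

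The test was edgeR's robust quasi-likelihood fit (version 4.0.16, R 4.3.3) after filterByExpr and TMM scaling, with p adjusted by Benjamini-Hochberg over 14777 genes, *KIFC1* kept despite the filter, and a threshold of 0.05. A standard error is the size of the log2 difference over the root of its F statistic. The alternatives used DESeq2 1.42.0 and limma 3.58.1. Exon lengths came from GENCODE 44. The script was tested on simulated data.

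Libraries with the same replicate number deviated together, so the numbers were taken to pair the libraries in the fit with the replicate block. The main fit leaves this pairing out. Over 11758 genes, deviations from the group means had correlations of 0.484, 0.414 and 0.491, against -0.457 to 0.0234 for different numbers. Deviations within a group cancel out, so the values for different numbers are not independent of those for equal numbers. Standard errors, intervals and adjusted p are from the fit without the block unless the block is named. Depth was 15392374 to 17754458 counts per library, and the floor of 3 counts covers counting error only.

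Genes named are all members, *KIFC1*, the 3 lowest and 3 highest genes of each list and list genes called in either fit. Markers, other motile cilium genes, overlapping genes and *NEK5* are named beyond that rule. The members and lists were chosen with earlier results of these data known. The values of 1 marker gene are not reported here.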

Additional observations from a re-analysis of the deposited data

How the results depend on the processing

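Of the 130 refits of the 10 members (13 alternatives each), 0 gave an adjusted p under 0.05, the lowest being 0.0553 for *NEK10* without siKIFC1 replicate 3. The direction held in every alternative for *NEK2*, *NEK4*, *NEK6*, *NEK7*, *NEK9*, *NEK10* and *NEK11*. *NEK1* turned negative without the filter on low counts (-0.00054) and with library size only (-0.0092). Leaving out each library gave log2 differences from -0.17 to 0.090 for *NEK1*, from -0.018 to 0.11 for *NEK3* and from -0.17 to 0.077 for *NEK8*.

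The counts over all genes moved more. The 48 higher and 55 lower genes became 121 and 144 without the filter, 126 and 148 with DESeq2, and 407 and 454 with the replicate block, and with each library left out they ran from 9 to 194 higher and from 15 to 274 lower, with most without siKIFC1 replicate 3 and fewest without control siRNA replicate 3. With the replicate block 1 partner gene (*STK3*) was called higher and 1 G2/M gene (*MKI67*) lower, and the block changed the call of no NEK gene. Leaving out 1 library gave 0 to 1 lower G2/M genes, *MKI67* without siKIFC1 replicate 3. The cause was not tested. Canonical transcript lengths moved the level per length of 9 of the 10 members (all but *NEK4*) by more than the SD between control libraries, and for *NEK1* from 0.838 to 2.24 CPM per kilobase. *NEK10* had 39 to 84 counts per library, the fewest of the members, and how far depth or the spread between libraries limits its test was not tested.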
